A study of Mus musculus with 72 samples.

Results

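Liver transcripts of mice fed only at night were set against those of mice fed ad libitum at a single time of day, ZT02, the zeitgeber time 2 h after lights on. The comparison holds 6 of the 72 libraries of the study: the 3 night-restricted libraries labelled ZT02 and the 3 ad libitum libraries labelled ZT02. All came from male, wild-type C57BL/6J mice with a starting age of 43 to 49 days, kept in a 12 h light and 12 h dark cycle with water always available. The study measured liver mRNA by 3′ end sequencing under 4 feeding paradigms at 6 times, with 3 libraries each. The other paradigms, arrhythmic feeding and arrhythmic feeding in incompletely adapted mice, serve below only to place the levels. The labels do not give the hours of food access or say whether replicates were separate animals. The p-values rest on spread between replicates pooled over all 72 libraries, and this spread may be technical.

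Mice are nocturnal and eat mostly in the dark, and with free access to food they also take some of it in the light. ZT02 lies early in the light phase. The liver answers feeding through insulin and the SREBP factors, which switch on lipid synthesis, and answers fasting through glucagon, glucocorticoids, FOXO factors and PPARA, which switch on glucose output and fat burning. It also has a circadian clock of transcriptional repressors and activators, and a set of genes that differ between the sexes under control of pulsatile growth hormone. Body temperature and food intake move heat shock and cold-inducible genes over the day.

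Total counts ran from 5938121 to 8207650 in the night-restricted libraries and from 6924297 to 8381815 in the ad libitum libraries, within the 4342026 to 12286021 of all 72. Levels are given as CPM, counts scaled by library size after trimmed mean scaling, and a fold change is the fitted log2 ratio of night-restricted over ad libitum, with its standard error (SE). Hepatocyte identity markers (9 of 10 found, none at 0) summed to between 34610 and 46170 CPM in night-restricted and between 25240 and 31030 CPM in ad libitum libraries, and to 35360 to 38890 against 27340 to 29450 CPM of the unscaled library totals. In night-restricted replicate 1 most of the sum was Ttr and Serpina1a, at 27554 and 8666 CPM, while Alb, Fabp1 and Hnf4a had their lowest values of the 6 libraries there, at 5932, 1543 and 69.9 CPM. The median log2 fold change of these markers was 0.24, and -0.05 without night-restricted replicate 3. The GC slope of a library, which relates how far each gene deviates in it (log2) to the GC content near the transcript's 3′ end, was 0.337, 0.142 and 0.0225 in the night-restricted libraries and -0.0829, 0.118 and 0.0397 in the ad libitum libraries. Night-restricted replicate 1 had the second highest slope of the 72 libraries. The lowest correlation within its group was 0.922, between replicates 1 and 3, and the lowest for replicate 2 was 0.954. The slope did not separate the groups (exact permutation test, two-sided, p = 0.3, where 3 against 3 libraries cannot go below 0.1).

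Few single genes passed the test at ZT02. Of 12712 genes tested, 3 were called at an adjusted p under 0.05, which is 0.0236% of the genes. Cyp39a1 rose, and Olig1 and Cyp4a12b fell, under night-restricted feeding. At an unadjusted p under 0.05 there were 409 higher and 446 lower genes, 6.73% of those tested, and the median log2 fold change of all genes was -0.0030. The count depended on the tool: DESeq2 called 12 genes and limma voom with sample quality weights called 594 (4.67%), 269 higher and 325 lower, and both sets held the 3. It was 0 without night-restricted replicate 1, without night-restricted replicate 2 or without ad libitum replicate 2, 1 without ad libitum replicate 1, and 14 with GC slope in the model, the 3 among them.

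Cyp39a1 encodes an oxysterol 7-alpha-hydroxylase that acts on 24-hydroxycholesterol in a side route of bile acid synthesis. The gene (ENSMUSG00000023963.9) spans bases 43667425 to 43751431 of the plus strand of chromosome 17 in GRCm38. It had 31.1, 25.01 and 20.8 CPM in the night-restricted libraries and 7.66, 4.53 and 7.73 CPM in the ad libitum libraries. The lowest night-restricted value was well above the highest ad libitum value. The log2 fold change was 1.94 ± 0.36 (SE; fold change 3.85; edgeR quasi-likelihood test, adjusted p = 0.0153), and the adjusted p was 0.131 without night-restricted replicate 1. The call was also lost without night-restricted replicate 2, without ad libitum replicate 1 and without ad libitum replicate 2. It was lost as well in the fit of the 36 night-restricted and ad libitum libraries. Cyp39a1 was called in 10 of the 17 alternatives run.

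Cyp4a12b encodes a fatty acid omega-hydroxylase that is known as male-biased in mouse liver. The gene (ENSMUSG00000078597.2) spans bases 115411624 to 115439034 of the plus strand of chromosome 4. It had 103, 70.7 and 88.8 CPM in the night-restricted libraries and 339.9, 265 and 289 CPM in the ad libitum libraries, with a wide gap between the groups. The log2 fold change was -1.77 ± 0.35 (SE; adjusted p = 0.0213 by the edgeR test), and the call was lost on leaving out any single library of the 6, where adjusted p ran from 0.0525 to 0.492. Its neighbour Cyp4a12a had 441, 485 and 307 CPM in night-restricted and 1115, 912 and 1028 CPM in ad libitum libraries. Those groups did not overlap either, and the log2 fold change of -1.31 ± 0.36 had an adjusted p of 0.333. The transcripts of the pair are 97.0% identical over their last 300 bases, so reads could be divided between them by the authors' counting, and the split between the pair is uncertain.

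Olig1 encodes a basic helix-loop-helix transcription factor best known from oligodendrocytes. The gene (ENSMUSG00000046160.6) spans bases 91269772 to 91271933 of the plus strand of chromosome 16. It had 10.7, 8.93 and 12.5 CPM in the night-restricted libraries and 29.7, 51.3 and 32.8 CPM in the ad libitum libraries. The groups were far apart, and the ad libitum values were spread more widely. The log2 fold change was -1.83 ± 0.36 (SE; adjusted p = 0.0213 by the edgeR test), with an adjusted p of 0.443 without night-restricted replicate 2. In bulk liver, fewer cells of a type and less RNA per cell cannot be told apart.

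**Figure D1:**
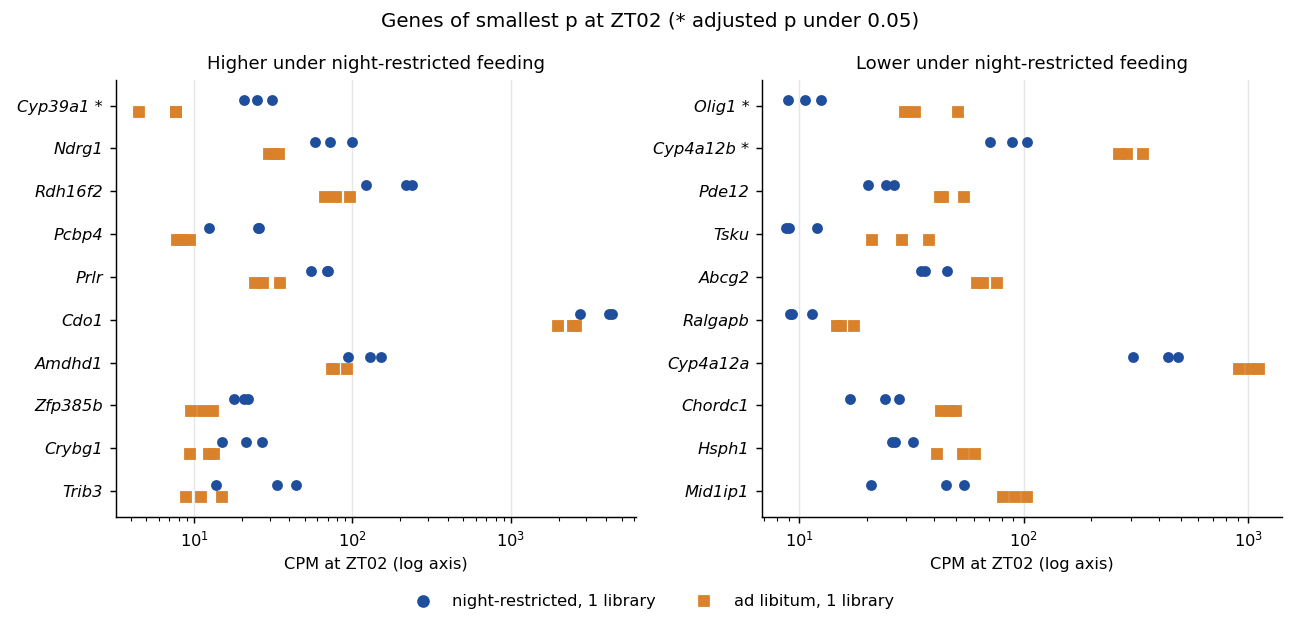
CPM at ZT02 on a log axis for the 10 genes of smallest p in each direction among those averaging at least 10 CPM, with 1 point per library (circles, night-restricted; squares, ad libitum) and an asterisk on the 3 called genes. The circles of Cyp39a1 lie between 20.8 and 31.1 CPM, right of all its squares, and those of Olig1 between 8.93 and 12.5 CPM, left of all its squares.

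The other genes of smallest p are given as values, since none passed the edgeR test as fitted. Ndrg1, Tsku and Pde12 were among the 14 genes called with GC slope in the model (adjusted p = 0.0163, 0.0119 and 0.0355) and among those called by DESeq2 and limma voom. Ndrg1, a stress-responsive gene, had 72.4, 100.02 and 57.8 CPM in night-restricted and 31.9, 34.3 and 29.6 CPM in ad libitum libraries. Its log2 fold change of 1.27 ± 0.27 had an adjusted p of 0.0505, and it was called in 7 of the 17 alternatives run. Rdh16f2, of the retinol dehydrogenase family, had 218, 236 and 122 CPM against 78.5, 97.2 and 67.1 CPM, a log2 fold change of 1.25 ± 0.29. Prlr, the prolactin receptor, which is higher in female than in male mouse liver, had 69.9, 69.4 and 54.4 CPM in night-restricted and 24.1, 27.4 and 34.9 CPM in ad libitum libraries. No library of either group crossed into the range of the other for these genes.

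Enzymes of amino acid breakdown were also among the genes of smallest p. Cdo1, which oxidises cysteine, had 4377, 4139 and 2750 CPM in night-restricted and 1976, 2562 and 2453 CPM in ad libitum libraries. Amdhd1, of histidine breakdown, had a log2 fold change of 0.63 ± 0.17. Trib3, a pseudokinase induced by amino acid and ER stress, had 44.3, 33.3 and 13.7 CPM against 11.03, 14.96 and 8.90 CPM, so that night-restricted replicate 3 fell within the ad libitum range. Pcbp4, Zfp385b and Crybg1 completed the 10 higher genes, with log2 fold changes of 1.32, 0.83 and 0.84.

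Tsku, a secreted protein of the liver, was among the lower genes with 12.1, 9.06 and 8.73 CPM in night-restricted and 28.7, 21.1 and 37.8 CPM in ad libitum libraries. Its log2 fold change of -1.55 ± 0.38 had an adjusted p of 0.195. Pde12, a mitochondrial RNA deadenylase, had 20.2, 24.4 and 26.5 CPM against 42.6, 54.1 and 43.8 CPM. Abcg2, an export pump of bile canaliculi, and Ralgapb, a subunit of a Ral GTPase activator, had log2 fold changes of -0.80 ± 0.20 and -0.68 ± 0.18. Mid1ip1, which activates acetyl-CoA carboxylase and so fatty acid synthesis, had 20.98, 45.0 and 54.1 CPM in night-restricted and 80.9, 91.3 and 103 CPM in ad libitum libraries, with the lowest value in night-restricted replicate 1.

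Pathway lists were described by the number of members called, by the number whose groups did not overlap, and by the median log2 fold change, beside all genes tested. Of all genes, 4.51% were higher and 5.03% lower with no overlap between the groups. Of the 34 pathway lists, none held a gene called by the edgeR test, Cyp39a1, Olig1 and Cyp4a12b being in none of them. Limma voom with quality weights called 52 list members, and the counts below from that tool stand beside 2.12% of all genes called higher and 2.56% called lower. List members named below for groups that did not overlap were chosen after their values were seen.

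**Figure D2:**
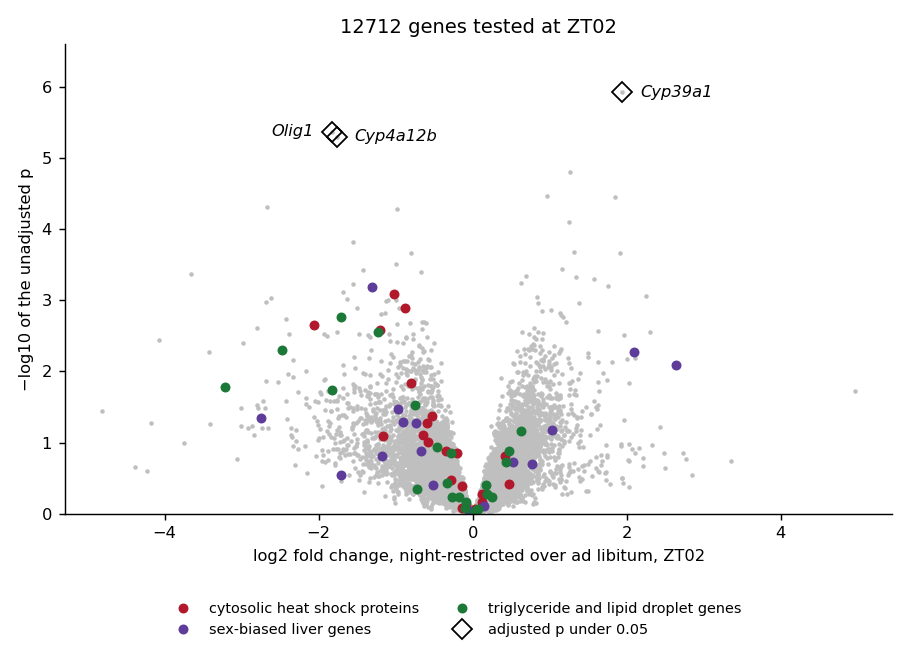
Log2 fold change of night-restricted over ad libitum at ZT02 (x) and −log10 of the unadjusted p (y) for 12712 genes, with diamonds on the 3 called genes and coloured points for the members of 3 lists. Cyp39a1 stands at 1.94, and Olig1 and Cyp4a12b stand at -1.83 and -1.77, above all other genes.

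Sex-biased liver genes had a median log2 fold change of -0.60 over 16 tested members, the lowest of the pathway lists. The list holds male-biased and female-biased genes together. Groups did not overlap for 2 higher and 4 lower members. Besides Cyp4a12a, the lower ones included Cyp7b1, a male-biased oxysterol hydroxylase, with 43.7, 51.4 and 65.4 CPM in night-restricted and 91.7, 100.3 and 122 CPM in ad libitum libraries. Mup20, a male urinary pheromone carrier, had 1395, 2434 and 2123 CPM against 3093, 3217 and 3605 CPM. Cyp2a4, a female-biased P450, had log2 fold change -1.71 ± 1.57 at levels of a few CPM.

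The higher pair were genes known as female-biased in mouse liver. Cyp2b9 had 44.7, 38.9 and 17.0 CPM in night-restricted and 5.18, 9.43 and 1.31 CPM in ad libitum libraries, and Cyp17a1 had 70.0, 48.9 and 15.8 CPM against 6.53, 14.5 and 10.7 CPM. Replicate 3 was the lowest of the night-restricted libraries for both. Their log2 fold changes were 2.64 ± 0.96 and 2.09 ± 0.72, with adjusted p of 0.606 and 0.585. Limma voom with quality weights called 2 members of the list higher, Cyp2b9 and Cyp17a1, and 3 lower, Cyp4a12a, Elovl3 and Fmo2.

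The growth hormone and IGF axis list had a median of 0.38 over 13 tested members, with 3 higher and 1 lower without overlap. Stat5b, which carries the growth hormone signal to the nucleus, had 123, 91.2 and 75.6 CPM in night-restricted and 54.7, 70.0 and 52.4 CPM in ad libitum libraries. Bcl6, a repressor that opposes STAT5 at sex-biased genes, had 22.6, 33.7 and 15.0 CPM against 58.4, 98.3 and 141 CPM, a log2 fold change of -2.06 ± 0.998 (adjusted p = 0.734). The ad libitum values of Bcl6 alone spanned a wide range. At the other times the log2 difference of Bcl6 had both signs (0.22, -1.21, -0.90, 0.67 and 0.44 at ZT06, ZT10, ZT14, ZT18 and ZT22). Igf1 itself had a log2 fold change of 0.16, and the receptor gene Ghr of -0.10, with groups that overlapped.

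Bile acid synthesis and uptake genes had a median of -0.20 over 15 members, which was 0.02 with GC slope in the model, with 2 lower and 0 higher without overlap. Limma voom with quality weights called 2 members higher, Abcb11, the bile salt export pump, and Klb, a coreceptor of FGF hormones, and 0 lower. Cyp7a1, the rate-limiting enzyme of the main route, had 12.7, 14.9 and 11.9 CPM in night-restricted and 22.3, 10.8 and 20.9 CPM in ad libitum libraries, which overlapped. Cyp27a1, which starts the alternative route, had 87.7, 138 and 136 CPM against 178, 179 and 169 CPM, with a log2 fold change of -0.54 ± 0.31. Cyp39a1 was the only one of these bile acid hydroxylases that the edgeR test called.

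The triglyceride and lipid droplet list had a median of -0.18 over 23 members, -0.36 with GC slope in the model, with 5 lower and 2 higher without overlap. Cidec, which fuses and enlarges lipid droplets, had 1.98, 0.893 and 3.13 CPM in night-restricted and 12.7, 12.1 and 8.17 CPM in ad libitum libraries. Its relative Cidea had 4.55, 1.403 and 5.60 CPM against 55.7, 37.6 and 12.4 CPM. Night-restricted libraries were low for both, and for Cidea the ad libitum libraries differed among themselves more than the nearest pair across the groups.

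Plin4, a lipid droplet coat protein, had 1.58, 1.79 and 2.31 CPM in night-restricted and 6.53, 7.17 and 4.96 CPM in ad libitum libraries. Fitm1, which promotes droplet formation, had 48.9, 43.8 and 57.2 CPM against 85.3, 169 and 96.3 CPM. Mogat1, an enzyme of triglyceride synthesis, had 0.198, 0.893 and 1.15 CPM against 3.04, 3.27 and 2.04 CPM. The log2 fold changes of these 5 genes ran from -3.22 (Cidea) to -1.23 (Fitm1), with adjusted p from 0.453 to 0.700 by the edgeR test. The 2 higher members without overlap were Lpin1 and Lpin3. Limma voom with quality weights called 4 members of the list lower, Cidec, Fitm1, Mgll and Plin4. It called 1 higher, Lpin3 (log2 fold change 0.82, adjusted p = 0.0467).

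Cidea, Cidec and Plin4 are also abundant in fat tissue, so adipocyte markers were read beside them. Lep had 0 counts in all 6 libraries, 1 of 7 markers at 0. Adipoq had 0, 0 and 1 counts in night-restricted and 0, 8 and 1 counts in ad libitum libraries. Cfd, the adipsin gene, had 2, 7 and 14 counts against 164, 135 and 74 counts, a clear gap between the groups. Leaving out Car3, which hepatocytes also express, the markers summed to 2.25 to 16.0 CPM of the unscaled library totals in night-restricted libraries. In ad libitum libraries they summed to 17.6 to 33.3 CPM. Of the markers in that sum, only Cfd had groups that did not overlap. Fabp4 had 12, 51 and 79 counts in night-restricted and 106, 33 and 47 counts in ad libitum libraries. The part of these markers in the lipid droplet values was not tested.

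Over the rest of the day the log2 difference of Cidec was 0.02 at ZT06, -0.78 at ZT10, -0.67 at ZT14, -2.98 at ZT18 and -2.99 at ZT22, and that of Cidea ran from -4.04 to -1.47 at these times. Plin2, the main droplet coat protein of hepatocytes, had a log2 fold change of 0.07 at ZT02, with 1064, 666 and 605 CPM in night-restricted and 646, 910 and 667 CPM in ad libitum libraries.

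**Figure D3:**
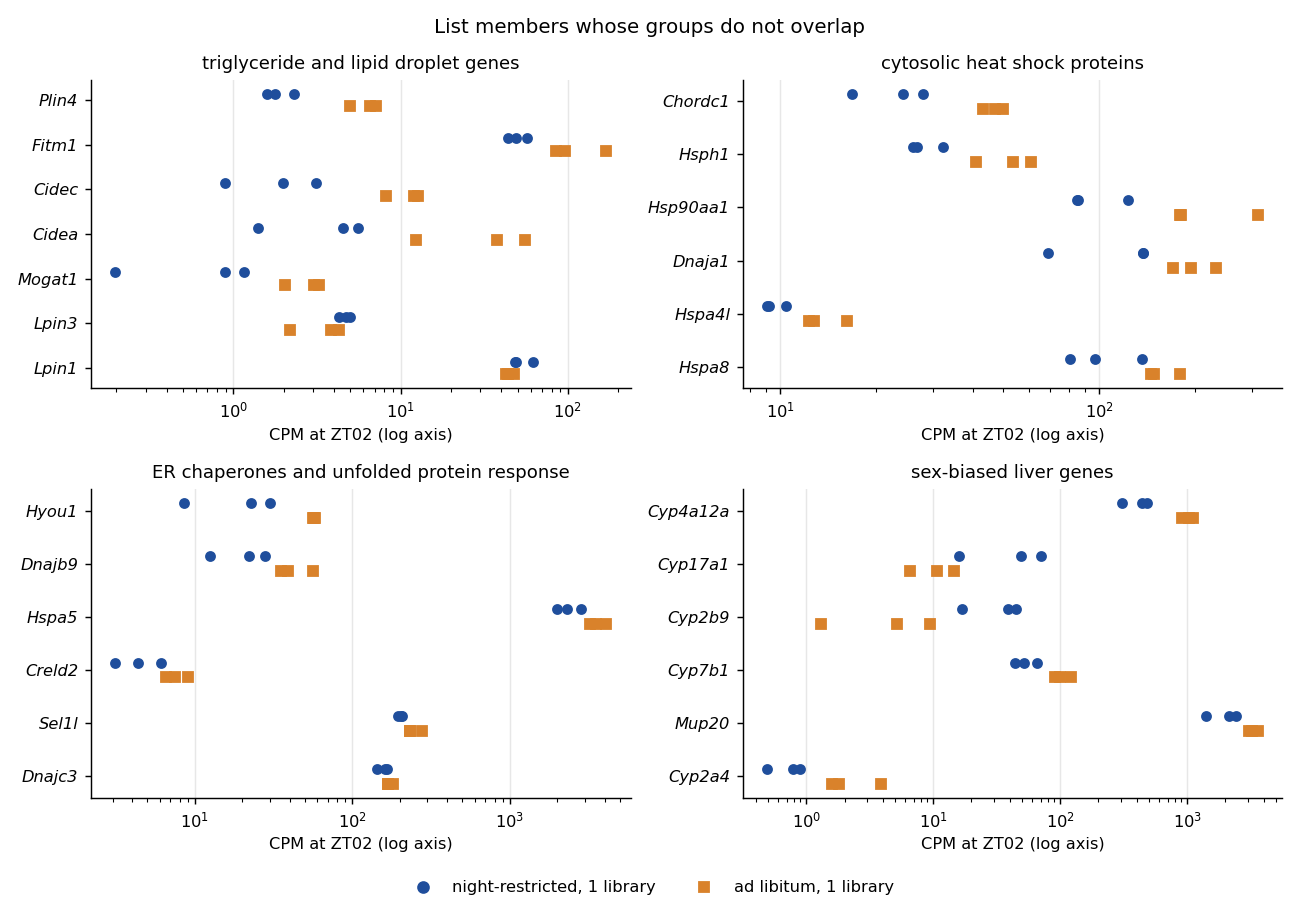
CPM at ZT02 on a log axis for the members of 4 lists whose groups did not overlap, 1 point per library (circles, night-restricted; squares, ad libitum), ordered by p. Circles lie left of squares for 6 heat shock and 6 ER chaperone members and for Cidec, Cidea, Plin4, Fitm1 and Mogat1, and right of them for Cyp2b9, Cyp17a1, Lpin1 and Lpin3.

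Fatty acid synthesis had a median of -0.16 over 21 members, with Mid1ip1 the single member without overlap. Fasn, the fatty acid synthase, had 2954, 1488 and 2463 CPM in night-restricted and 3477, 4002 and 2853 CPM in ad libitum libraries. Srebf1, its insulin-driven activator, had 1.39, 10.3 and 29.8 CPM against 29.9, 8.93 and 30.1 CPM, so that replicates of each group differed more than the groups. Srebf1 was lowest in night-restricted replicate 1, the library with the GC slope of 0.337.

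Cholesterol synthesis genes had a median of 0.06 over 27 members, with 2 higher without overlap. Mvk, mevalonate kinase, had 33.6, 39.2 and 26.0 CPM in night-restricted and 16.4, 23.4 and 22.5 CPM in ad libitum libraries, and Dhcr7 had 40.8, 38.1 and 40.05 CPM against 25.8, 30.7 and 32.3 CPM. Srebf2, the activator of the pathway, had a log2 fold change of 0.08 ± 0.20.

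Gluconeogenesis genes had a median of -0.01 over 13 members. Pck1, which commits carbon to glucose, had 40.2, 153 and 195 CPM in night-restricted and 96.6, 51.8 and 109.9 CPM in ad libitum libraries, with night-restricted replicate 1 the lowest of all 6. Its log2 fold change of 0.59 ± 0.97 became 1.59 with GC slope in the model. G6pc, which releases glucose, had 20.4, 47.2 and 44.8 CPM against 69.1, 43.9 and 54.4 CPM, and Ppargc1a, a fasting coactivator, had a log2 fold change of -0.31 ± 0.45.

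Glycolysis had a median of 0.13 over 18 members, with 4 higher and 1 lower without overlap. Of the members, 11 were above 0 and 7 below, and the median was 0.05 with GC slope in the model. The lower member, against the direction of the list, was Pfkfb3, which makes the activator of phosphofructokinase. Its log2 fold change was -0.69 ± 0.44.

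Among glycogen genes Ppp1r3c, which targets a phosphatase to glycogen, had 216, 245 and 214 CPM in night-restricted and 268, 615 and 347 CPM in ad libitum libraries. Its log2 fold change was -0.87 ± 0.39 (adjusted p = 0.726), with ad libitum replicate 2 the highest. Ppp1r3b and the liver glycogen synthase Gys2 had -0.42 ± 0.32 and 0.01 ± 0.26. Limma voom with quality weights called 1 member lower, Ppp1r3b (log2 fold change -1.10, adjusted p = 0.0140), and 0 higher. The list had a median of -0.13 over 16 members, with 2 higher and 1 lower, Ppp1r3c, without overlap.

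Insulin and FOXO genes had a median of 0.01 over 17 members, with 3 higher without overlap. Foxo1, the factor held back by insulin, had 65.7, 51.0 and 50.1 CPM in night-restricted and 45.4, 36.5 and 45.8 CPM in ad libitum libraries. Igfbp1, a FOXO target, had 207, 249 and 178.3 CPM against 177.5, 132 and 107 CPM, so the nearest libraries of the groups were almost level. Enho, which encodes the secreted peptide adropin, had 12.7, 10.97 and 3.46 CPM against 0.901, 2.01 and 2.63 CPM, with a log2 fold change of 2.30 ± 0.73 (adjusted p = 0.519). Insr and Irs2, of insulin signalling, had -0.19 ± 0.27 and 0.01 ± 0.42.

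PPARA targets had a median of 0.06 over 28 members, with 2 lower without overlap. Cpt1a, which admits fatty acids to mitochondria, had a log2 fold change of 0.32 ± 0.19, and Angptl4, a lipase inhibitor induced by fasting, had 0.82 ± 0.45. Fgf21, the fasting hormone, was listed at 0, 0 and 0.165 CPM in night-restricted and at 0.788, 0.251 and 0.584 CPM in ad libitum libraries, which is close to the detection limit in all 6 libraries.

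Core clock genes had a median of 0.18 over 23 members, with 1 member, Nr1d1, higher without overlap. Nr1d1, the REV-ERB alpha repressor, had 68.1, 30.6 and 22.4 CPM in night-restricted and 12.2, 21.2 and 15.3 CPM in ad libitum libraries. Its log2 fold change of 1.31 ± 0.55 (adjusted p = 0.705) was 0.71 without night-restricted replicate 1, which was the highest library, and 0.70 with GC slope in the model. It was called by limma voom with quality weights (adjusted p = 0.0337). Arntl, the BMAL1 activator, had 1.39, 3.19 and 11.2 CPM against 11.7, 2.39 and 8.61 CPM, which overlapped over most of their range.

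Per2, Per1, Dbp and Cry1 had overlapping groups. Per2 had 1.78, 3.57 and 4.61 CPM in night-restricted and 9.68, 3.02 and 8.61 CPM in ad libitum libraries. Per1 and Dbp, a clock output activator, had log2 fold changes of 0.88 ± 0.52 and 1.16 ± 0.58 at levels of under 6 CPM in all 6 libraries. Cry1 had 0.11 ± 0.36. Clock-controlled outputs had a median of -0.11 over 16 members, 8 above and 8 below 0, with 2 higher and 2 lower without overlap. The higher ones were Usp2 and Upp2. Usp2, a deubiquitinase, had 3.56, 1.66 and 2.80 CPM in night-restricted and 1.13, 0.880 and 0.876 CPM in ad libitum libraries. Upp2, a uridine phosphorylase, had 875, 419 and 356 CPM against 232, 326 and 288 CPM. The lower ones were Tfrc, described with the iron genes, and Pdk4, a brake on glucose oxidation, which was under 1 CPM in all 6 libraries.

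The list of cytosolic heat shock genes, chaperones and cochaperones of which some are driven by heat shock factor, had a median of -0.24 over 24 members. Groups did not overlap for 6 lower and 0 higher members. The median was -0.34 with GC slope in the model, and ran from -0.44 to -0.18 on leaving out a library. The list also holds the constitutive Hspa8 and the mitochondrial Hspd1 and Hspe1. The edgeR test called no member of the list, and 2 with GC slope in the model, Hsph1 and Hspa8. Limma voom with quality weights called 6 lower and 0 higher. The promoters of Hsph1 and Chordc1, the members of smallest p, are shown because both hold a heat shock element, the site read by that factor. Sequences are RefSeq's for GRCm38.p6, on the strand of the gene, in lower case with the element in capitals. The pattern searched was a textbook form of the element: the blocks TTC, GAA and TTC in that order, or GAA, TTC and GAA for the other strand, with any pair of bases (NN) between neighbouring blocks. The Hsph1 window is chr5:149636266-149636565 (minus strand) and the Chordc1 window is chr9:18292017-18292316 (plus strand).
Hsph1: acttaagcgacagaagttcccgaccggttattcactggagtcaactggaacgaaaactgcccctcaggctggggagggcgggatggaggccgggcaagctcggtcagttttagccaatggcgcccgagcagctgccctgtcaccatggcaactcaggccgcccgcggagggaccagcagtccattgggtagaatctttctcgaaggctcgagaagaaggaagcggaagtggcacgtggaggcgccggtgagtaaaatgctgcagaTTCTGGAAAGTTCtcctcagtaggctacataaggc
Chordc1: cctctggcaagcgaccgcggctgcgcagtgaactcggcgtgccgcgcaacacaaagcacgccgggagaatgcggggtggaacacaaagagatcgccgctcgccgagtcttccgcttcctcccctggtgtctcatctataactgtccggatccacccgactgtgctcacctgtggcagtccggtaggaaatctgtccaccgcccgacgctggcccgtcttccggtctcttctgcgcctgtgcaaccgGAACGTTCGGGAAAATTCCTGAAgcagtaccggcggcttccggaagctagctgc

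The Chordc1 window held 3 overlapping matches and the Hsph1 window 1. The element was found in 198 of all 32851 promoter windows of 300 bases (0.603%), counted on both strands. Of the 24 heat shock genes 19 had a window, and 4 of these held the element: Hsph1, Chordc1, and the divergent pair Hspd1 and Hspe1. Counted by window, it was in 5 of 26. A window of Hspd1 and that of Hspe1 overlap, so their matches may be the same. The other genes with a window, Hspa1a and Hspa1b among them, held no match. Hspd1 and Hspe1, the mitochondrial chaperonin subunits, had log2 fold changes of -0.20 and 0.12. A match is a string of letters and not a measured binding site.

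Hsph1, a nucleotide exchange factor for HSP70, had 32.3, 26.0 and 26.7 CPM in night-restricted and 41.1, 53.7 and 60.9 CPM in ad libitum libraries. Its log2 fold change of -0.87 ± 0.26 had an adjusted p of 0.407. Chordc1, a partner of HSP90, had 16.8, 24.2 and 28.0 CPM against 50.0, 47.1 and 43.0 CPM, a log2 fold change of -1.02 ± 0.29 (adjusted p = 0.378). In both genes the groups stood apart, and within the night-restricted group replicate 1 was at opposite ends of the range.

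Hsp90aa1, the inducible HSP90, had 85.5, 85.0 and 122.9 CPM in night-restricted and 314, 180.2 and 179 CPM in ad libitum libraries. Dnaja1, an HSP40, had 69.1, 137 and 137 CPM against 170.4, 194 and 232 CPM. Hspa8, the constitutive HSC70, had 136, 97.0 and 80.9 CPM against 148, 146 and 179 CPM, and its log2 fold change of -0.59 ± 0.30 was -0.92 with GC slope in the model. Hspa4l had a log2 fold change of -0.52 ± 0.25. Not all members shared the direction, since Stip1 had 0.47 and Tcp1 had 0.42. Hspa1a, the inducible HSP70, had 0.792, 0.510 and 0.659 CPM against 3.15, 0.377 and 0.730 CPM, which overlapped.

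ER chaperones and unfolded protein response genes had a median of -0.30 over 23 members, with 19 below 0 and 4 above. Groups did not overlap for 6 lower and 0 higher members, and limma voom with quality weights called 3 lower. Hspa5, the main ER chaperone BiP, had 2824, 2005 and 2320 CPM in night-restricted and 3226, 3514 and 4081 CPM in ad libitum libraries. Hyou1, its exchange factor, had 8.51, 22.6 and 30.0 CPM against 57.8, 56.3 and 57.4 CPM, with the lowest value in night-restricted replicate 1. Dnajb9, an ER cochaperone, had 12.5, 27.8 and 22.1 CPM against 38.8, 56.3 and 35.3 CPM. Creld2, an ER stress gene, had 6.13, 4.34 and 3.13 CPM against 6.53, 9.05 and 7.44 CPM. The median was -0.19 with GC slope in the model and -0.20 without night-restricted replicate 1.

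Hspa5 and Hsph1 were set against the rest of the day. Hsph1 was named for a small p at ZT02, which favours a larger difference there than at other times. For neither gene was the ZT02 difference called against the mean of the other 5 times (edgeR test, adjusted p = 0.9999 for both). The log2 difference of Hspa5 was -0.60 at ZT02 and lay between -0.39 and 0.21 at the other 5 times. That of Hsph1 was -0.87 at ZT02, against -0.61, 0.08, 0.39, 0.28 and -0.41 at ZT06, ZT10, ZT14, ZT18 and ZT22. The list medians at these times were -0.19, -0.12, 0.18, 0.17 and -0.26 for heat shock genes and -0.36, -0.08, 0.02, 0.31 and 0.03 for ER chaperones. Hsph1 was highest at ZT14 in both paradigms, at 144 ± 36 CPM under night-restricted and 110.3 ± 26 CPM under ad libitum feeding (SD, n = 3 each).

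The cold-inducible RNA-binding genes had the opposite sign. Cirbp, which is induced by mild cooling, had 77.6, 73.5 and 37.9 CPM in night-restricted and 24.2, 43.8 and 25.5 CPM in ad libitum libraries, a log2 fold change of 1.01 ± 0.30 (adjusted p = 0.421). Night-restricted replicate 3 lay within the ad libitum range. Cirbp was called higher by limma voom with quality weights (log2 fold change 1.30, adjusted p = 3.709e-05). Rbm3, its relative, had 30.9, 17.99 and 21.4 CPM against 16.4, 20.9 and 14.4 CPM, a log2 fold change of 0.44 ± 0.27 that was 0.19 without night-restricted replicate 1. SR splicing factors had a median of -0.33 over 14 members, with 3 lower without overlap, and -0.13 with GC slope in the model. Srsf2 had 36.6, 47.3 and 42.9 CPM in night-restricted and 53.5, 50.2 and 56.8 CPM in ad libitum libraries.

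Integrated stress response genes had a median of 0.19 over 15 members, with 2 higher without overlap. Chac1, which degrades glutathione, had 7.32, 5.36 and 3.30 CPM in night-restricted and 1.91, 1.51 and 0.438 CPM in ad libitum libraries. Slc3a2, the heavy chain of amino acid transporters, had 35.2, 50.5 and 37.1 CPM against 29.4, 33.9 and 33.6 CPM. Chac1, Slc3a2 and Trib3 were called higher by limma voom with quality weights. Atf4, the factor that drives these genes, had a log2 fold change of 0.03, and Asns, a classical target, had -0.75 with groups that overlapped.

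Amino acid catabolism and the urea cycle had a median of 0.21 over 26 members, with 2 higher without overlap. Hal, which opens histidine breakdown, had 413, 357 and 400.5 CPM in night-restricted and 225, 214 and 300.03 CPM in ad libitum libraries, a log2 fold change of 0.66 ± 0.23 (adjusted p = 0.585). Got1, the cytosolic aspartate transaminase, had 358, 392 and 316 CPM against 198, 252 and 222 CPM. The list median was 0.46 at ZT22, before lights on, and lay between -0.04 and 0.13 from ZT06 to ZT18.

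Metallothioneins, which bind zinc and respond to glucocorticoids and fasting, had high fold differences with wide errors. Mt1 had 78.8, 67.4 and 18.6 CPM in night-restricted and 10.6, 19.4 and 8.32 CPM in ad libitum libraries, so that night-restricted replicate 3 lay within the ad libitum range. Mt2 had 60.7, 81.9 and 23.2 CPM against 11.3, 14.3 and 15.0 CPM, without overlap. Their log2 fold changes were 2.10 ± 0.74 and 2.03 ± 0.80, with adjusted p of 0.599 and 0.668 by the edgeR test, and 0.0169 and 0.0371 by limma voom with quality weights. The glucocorticoid-responsive list as a whole had a median of -0.12 that became 0.68 with GC slope in the model and 0.31 without night-restricted replicate 1.

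Iron and heme genes had a median of 0.20 over 21 members, and 0.01 with GC slope in the model. Tfrc, the transferrin receptor, had 4.75, 4.21 and 6.59 CPM in night-restricted and 16.7, 12.3 and 15.0 CPM in ad libitum libraries, a log2 fold change of -1.50 ± 0.44 (adjusted p = 0.407 by the edgeR test and 0.00278 by limma voom with quality weights). Hamp2, a hepcidin relative, had 410.4, 298 and 127 CPM against 62.9, 98.8 and 97.2 CPM. Hamp and Hamp2 transcripts are 84.3% identical over the last 300 bases, so reads may be shared. Alas1, which starts heme synthesis, had 4.35, 6.51 and 8.24 CPM against 14.6, 5.15 and 15.0 CPM, which overlapped.

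Acute phase genes had a median of 0.27 over 20 members, with 4 higher and 0 lower without overlap, and 0.12 with GC slope in the model. Fgg, of fibrinogen, had 2549, 2165 and 2156 CPM in night-restricted and 1623, 1594 and 1419 CPM in ad libitum libraries. Itih4, Hpx and Fga were the others, with log2 fold changes of 0.74, 0.59 and 0.36. Among hepatokines, Ahsg, the fetuin A gene, had 7598, 7160 and 6909 CPM against 4305, 5033 and 5621 CPM. These are secreted proteins of hepatocytes, whose identity markers were also higher in sum in the night-restricted libraries, though not each marker, and the part of that sum was not tested.

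Cytosolic ribosomal proteins had a median of 0.21 over 28 members, with 23 above 0 and 4 higher without overlap. The median was 0.11 with GC slope in the model, 0.13 without ad libitum replicate 1 and 0.09 without night-restricted replicate 3. Rpl3 had 269.9, 225 and 238 CPM in night-restricted and 149.7, 163 and 195 CPM in ad libitum libraries. Ribosome biogenesis had a median of -0.20 over 25 members, with 3 lower and 1 higher without overlap. Nop58, of the box C/D particle that guides RNA methylation, had 9.30, 10.5 and 16.8 CPM against 27.0, 21.6 and 23.6 CPM. Respiratory chain genes had a median of 0.16 over 26 members, with 3 higher without overlap. Of these, Uqcrc1, a complex III subunit, had a log2 fold change of 1.06 ± 0.47, which was 0.55 with GC slope in the model.

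**Figure D4:**
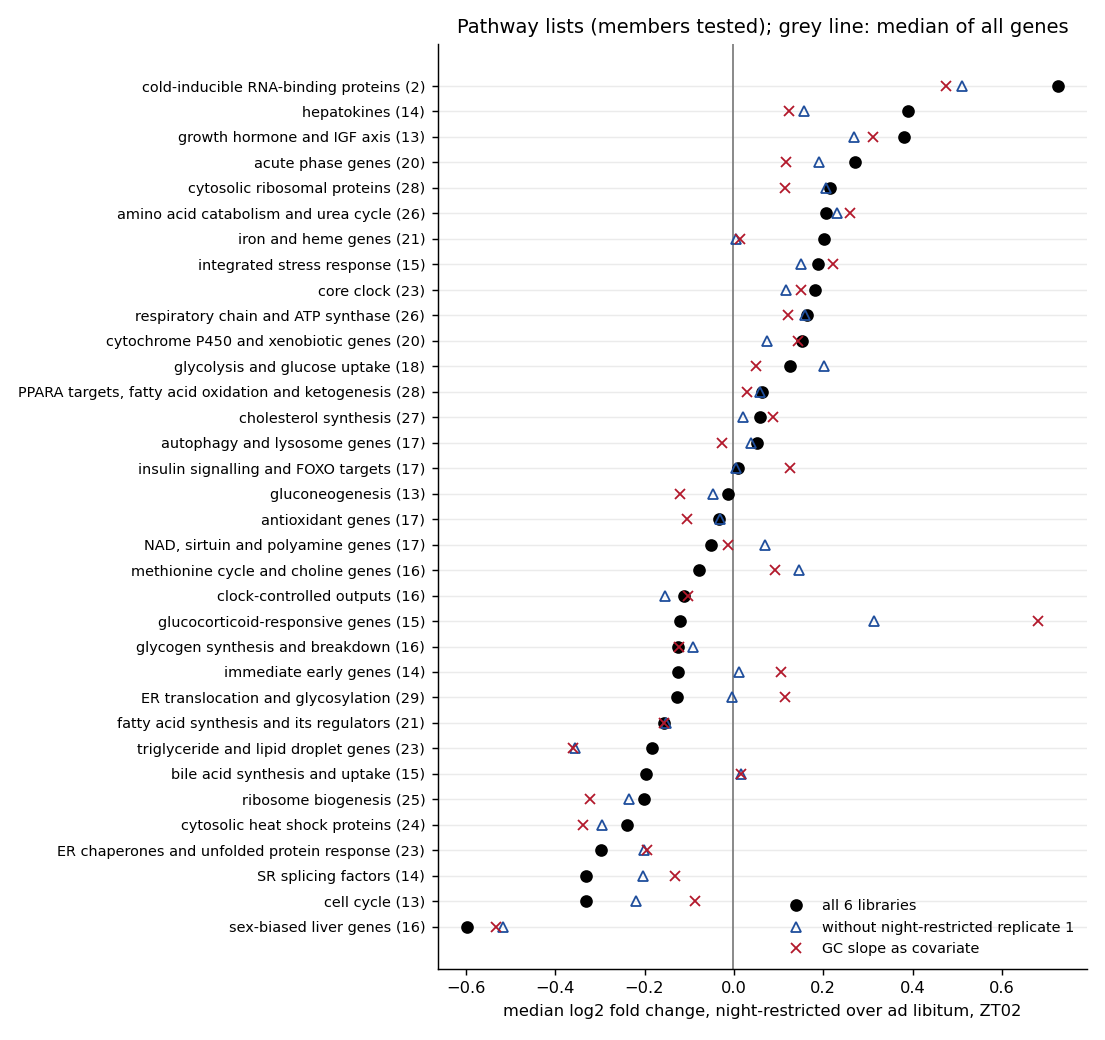
Median log2 fold change of night-restricted over ad libitum at ZT02 for 34 pathway lists (members tested in brackets), from all 6 libraries (dots), without night-restricted replicate 1 (triangles) and with GC slope in the model (crosses); the grey line is the median of all genes. Sex-biased genes stand lowest at -0.60, and the glucocorticoid list lies at -0.12 on the dots and at 0.68 on the crosses. Heat shock genes stay at or below -0.24 on all 3 marks, and ran from -0.44 to -0.18 on leaving out each of the 6 libraries.

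Markers of other cells were counted in the same 6 libraries, and their sums are CPM of the unscaled library totals. Kupffer cell and macrophage markers (12 found, none at 0) summed to 1191 to 2094 CPM in night-restricted and 1171 to 1382 CPM in ad libitum libraries, with the highest sum in night-restricted replicate 1. The largest marker in that library was C1qa, with 6362, 3872 and 1951 counts in night-restricted and 4142, 3260 and 2513 counts in ad libitum libraries. Csf1r was also highest there, at 670 counts, while C1qc and Lyz2 were lowest, at 87 and 456 counts. The median log2 fold change of these markers was 0.21, and -0.08 with GC slope in the model. Erythroid markers summed to 1393 to 2495 CPM against 2266 to 3951 CPM, and endothelial markers to 394 to 466 CPM against 402 to 471 CPM, and both pairs of ranges overlapped. Of 8 pancreatic acinar markers 6 were at 0 in all 6 libraries. Cpa1 had a single count in all, and Cela1, which liver also expresses, had 1627, 925 and 891 counts in night-restricted and 603, 813 and 858 counts in ad libitum libraries. Pericentral and periportal hepatocyte markers had medians of -0.07 and 0.13 over 10 genes each.

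The called genes were then followed over the day and across the feeding paradigms. They were chosen for their difference at ZT02, which by itself favours extreme ranks of their ZT02 means and a wide gap there. Cyp39a1 averaged 25.6 ± 5.2 CPM in night-restricted ZT02 libraries, the highest of the 24 groups of paradigm and time, and 6.64 ± 1.8 CPM in ad libitum ZT02 libraries (SD, n = 3 each). Arrhythmic and incompletely adapted arrhythmic feeding gave 11.1 ± 1.2 and 8.46 ± 1.9 CPM at ZT02. At ZT06, ZT10, ZT14, ZT18 and ZT22 its log2 difference was 0.99, 0.89, 1.75, 0.96 and 1.65, above 0 each time. Night-restricted livers held 10.4 ± 1.8 CPM at ZT06 and 23.3 ± 1.8 CPM at ZT22, against 5.26 ± 1.0 and 7.43 ± 1.8 CPM in ad libitum livers.

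Cyp4a12b averaged 87.6 ± 16 CPM in night-restricted ZT02 libraries, the lowest of the 24 groups, and 298 ± 38 CPM in ad libitum ZT02 libraries, the highest. Arrhythmic feeding gave 130.03 ± 47 CPM and incompletely adapted arrhythmic feeding 159 ± 9.6 CPM at ZT02. The log2 difference between night-restricted and ad libitum feeding was -0.72, -0.75, -0.97, -0.75 and -0.99 at the other times. Olig1 likewise had its lowest group mean in night-restricted ZT02 libraries, at 10.7 ± 1.8 CPM, and its highest in ad libitum ZT02 libraries, at 37.9 ± 12 CPM, with 25.4 ± 6.7 and 23.3 ± 6.4 CPM under the arrhythmic paradigms. Its log2 difference at the other times ran from -1.06 at ZT22 to 0.10 at ZT14.

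**Figure D5:**
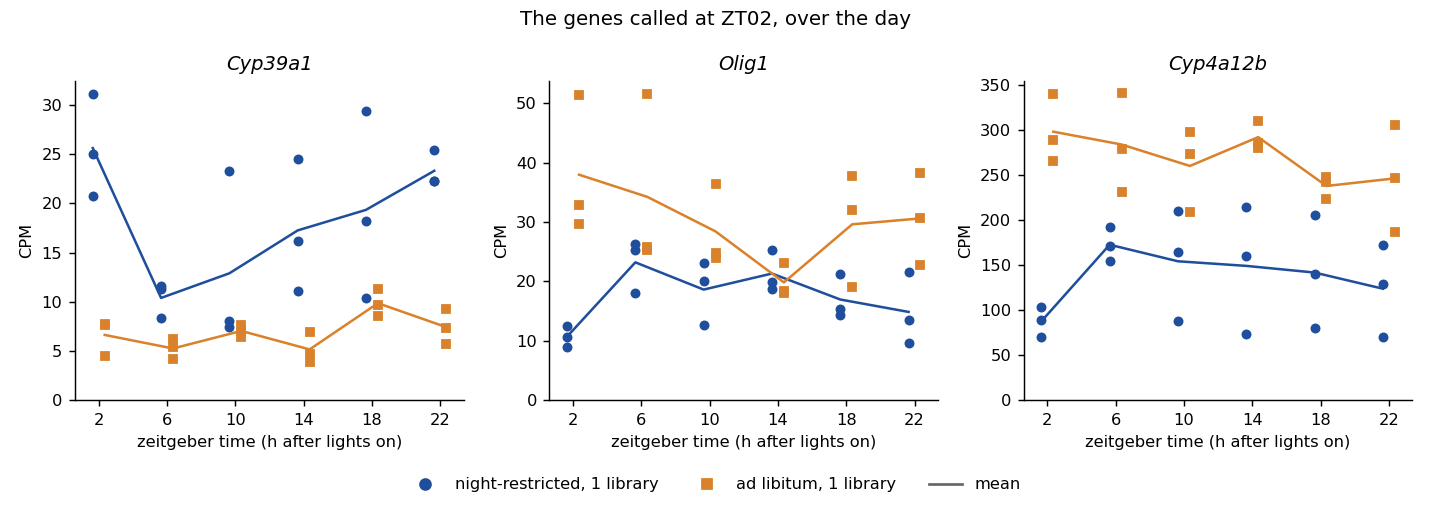
CPM of the 3 called genes at the 6 times (x, hours after lights on), with 1 point per library and lines through the means of 3 libraries (circles, night-restricted; squares, ad libitum). Night-restricted Cyp39a1 is highest at ZT02 with 25.6 CPM, and the paradigms lie farthest apart at ZT02 for Olig1 and Cyp4a12b. The genes were chosen for their difference at ZT02, which favours such a gap.

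Whether the ZT02 difference was larger than at other times was tested as an interaction. Against the mean of the other 5 times, 0 genes (0%) were called by the edgeR test, with 294 at an unadjusted p under 0.05. DESeq2 also called 0, and limma voom with quality weights called 131, Cyp4a12b among them (adjusted p = 0.0224) and neither Cyp39a1 nor Olig1 (0.268 and 0.0780). The log2 difference at ZT02 minus its mean over the other times was 0.70 ± 0.38 for Cyp39a1, -1.24 ± 0.38 for Olig1 and -0.93 ± 0.37 for Cyp4a12b, each with an adjusted p of 0.9999 by the edgeR test. Tsku had -1.45 ± 0.41, Pde12 -0.84 ± 0.24 and Zfp385b 0.91 ± 0.26. All of these genes were named for a small p at ZT02, which favours a larger difference at ZT02 than at other times. Against ZT22, 0 genes (0%) were called by edgeR, 191 at an unadjusted p under 0.05, 0 by DESeq2 and 7 by limma voom with quality weights.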

How the data were processed

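Livers of the mice were sequenced from transcript 3′ ends (Lexogen QuantSeq 3′ kit, TRIzol RNA, per the labels' protocols). Alignment was by STAR 2.4.2a to mouse builds given as mm10 and GRCm38.p5, per the submitters' processing notes. How reads were counted, on which strand and with which annotation was not given in the sources used here, so overlapping and antisense genes are uncertain. The authors deposited raw counts for 51912 Ensembl genes in 72 libraries. A second deposited table of normalised values was not used. All 72 count columns were matched to a sample and 0 were left out. Symbols and positions came from GENCODE M21 (GRCm38), and the 193 identifiers without a symbol held 0.00309% of counts.

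Counts were fitted with edgeR 4.0.16 in R 4.3.3 (TMM scaling, filterByExpr over 24 groups, robust quasi-likelihood, 24 group means over all 72 libraries), and p-values were adjusted by Benjamini-Hochberg over the 12712 genes tested. A gene was called at an adjusted p under 0.05. Interactions set the ZT02 difference against the mean of the other 5 times and against ZT22 in the same fit. CPM values use the scaled library size, and sums of cell type markers the unscaled total where stated. The totals of 5938121 to 8381815 counts over the 6 libraries limit what low genes can show. The fit was tested on simulated data.

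Named genes were the 10 of smallest p per direction with a mean of at least 10 CPM, because fewer than 5 were called in each direction, the called members of each of 34 pathway lists (none), and 36 preset genes, some of which are not reported here. The comparison, the lists and the preset genes were chosen with earlier results of these data known. Lists were described by counts and medians, with no set test. No 2 replicates of a group agreed within sampling noise (chi-square per degree of freedom 18.7 to 84.5 over genes with at least 20 counts). Alternatives were RLE scaling, other filters, fewer libraries, each of the 6 libraries left out, a replicate block, the GC slope of the last 500 bases in the model, limma 3.58.1 voom with quality weights, and DESeq2 1.42.0.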

Additional observations from a re-analysis of the deposited data

How the results depend on the processing

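The number of genes called at ZT02 (3) was 3 with RLE scaling, with no filter on low counts and with a replicate block over 72 libraries. These were the same 3 genes each time. It was 2 with the 36 night-restricted and ad libitum libraries, and only 1 of those 2 was among the 3. It was 5 with a mean of at least 10 CPM, 0 with the 6 ZT02 libraries alone (498 at an unadjusted p under 0.05), 14 with GC slope in the model, 594 with limma voom with quality weights and 12 with DESeq2. It ran from 0 to 4 on leaving out a library: 0 without night-restricted replicate 1, night-restricted replicate 2 or ad libitum replicate 2, 1 without ad libitum replicate 1, 3 without ad libitum replicate 3 and 4 without night-restricted replicate 3. The gene called without ad libitum replicate 1 was 1 of the 3. The calls without ad libitum replicate 3 and without night-restricted replicate 3 each held 2 of the 3. The 3 called genes kept their direction in each alternative: the log2 fold change ran from 1.72 to 2.05 for Cyp39a1, from -1.98 to -1.56 for Olig1 and from -1.97 to -1.65 for Cyp4a12b. The count of genes differing from the other 5 times (0) was 131 and that from ZT22 (0) was 7 with limma voom with quality weights, and both were 0 in all other alternatives run. The causes were not tested.

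Replicate numbers are shared between the groups, but the deviations of same-numbered libraries from their group means correlated at -0.37, 0.14 and 0.17, so the numbers were not taken to pair the samples. With the replicate block, 3 genes were called over 72 libraries, 0 with the 6 ZT02 libraries and 15 together with the GC slope.

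Genes that were not called and that changed sign are given on the log2 scale. With GC slope in the model, without and with the replicate block, the values were 0.0931 and 0.0699 for Arntl, 0.0558 and 0.0551 for Insr, 0.16 and 0.18 for Ppargc1a, and -0.0597 and -0.0368 for Cry1. Limma voom gave -0.16 for Srebf2 and -0.0084 for Cry1. Gys2 had -0.0204 with the 10 CPM minimum, -0.0186 with 6 libraries and -0.0105 with the 6 libraries and the replicate block. Irs2 had -0.0211 with 6 libraries, -0.00036 with the replicate block over 72 and -0.0697 with the block over 6. On leaving out a library, values ran from -1.63 to 0.21 for Hspa1a, -0.57 to 0.17 for Ppargc1a, -0.19 to 0.21 for Srebf2, -0.0939 to 0.30 for Cry1, -0.0677 to 0.13 for Gys2 and -0.21 to 0.26 for Irs2.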

Other observations

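With GC slope in the model, 14 genes were called at ZT02, of which 9 were lower and 5 higher. Genes named here were chosen after their values were seen. They include Dyrk1b, a kinase that restrains the cell cycle, with 12.1, 7.14 and 6.43 CPM in night-restricted and 2.25, 1.63 and 3.21 CPM in ad libitum libraries. Pheta1, an endosomal adaptor, had 11.1, 10.2 and 8.57 CPM in night-restricted against 6.08, 4.90 and 4.23 CPM in ad libitum libraries. Both were also called by DESeq2 and neither overlapped between the groups. Gmppb, which makes GDP-mannose for glycosylation, was called lower although night-restricted replicate 1, at 85.1 CPM, lay within the ad libitum range of 79.3 to 87.0 CPM.

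The remaining pathway lists held 0 genes called by the edgeR test. Cytochrome P450 and xenobiotic genes had a median log2 fold change of 0.15, and Cyp2c54 had 139.9, 144.2 and 104 CPM in night-restricted against 66.4, 73.5 and 80.1 CPM in ad libitum libraries. Methionine cycle genes had a median of -0.08, immediate early genes -0.13 and ER translocation and glycosylation genes -0.13, and each of these 3 medians was above 0 with GC slope in the model. Autophagy and lysosome genes had 0.05, NAD, sirtuin and polyamine genes -0.05, antioxidant genes -0.03, cell cycle genes -0.33 and hepatokines 0.39, beside -0.0030 for all genes tested. With GC slope in the model these were -0.03 for autophagy and lysosome genes, -0.01 for NAD, sirtuin and polyamine genes, -0.10 for antioxidant genes, -0.09 for cell cycle genes and 0.12 for hepatokines. On leaving out a library the median ran from -0.66 to -0.13 for cell cycle genes, from 0.16 to 0.45 for hepatokines and from 0.04 to 0.24 for cytochrome P450 genes, and it took both signs for the other 3 of these lists, the autophagy, NAD and antioxidant ones. Cdkn1a, the p21 cell cycle inhibitor, had 5.14, 3.57 and 4.78 CPM in night-restricted and 11.7, 8.80 and 9.63 CPM in ad libitum libraries, without overlap. The groups of Cish, a growth hormone target, overlapped, with 3.76, 33.2 and 21.6 CPM in night-restricted and 13.2, 2.26 and 2.92 CPM in ad libitum libraries.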
